A study of Mus musculus with 6 samples.

Results

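The 8 genes described here encode the ligand, receptor chains, kinase, transcription factor and a set of early targets of leukaemia inhibitory factor (LIF) signalling: Lif, Lifr, Il6st, Jak1, Stat3, Socs3, Pim1 and Pim3. They were taken by symbol from the array annotation, as 8 of the 16590 named genes on the array, with 15 of its 25697 probes. All 8 passed the detection filter and are among the 9900 genes tested, and 14 of their 15 probes passed it.

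LIF binds the receptor chain encoded by Lifr, which pairs with gp130, the shared signalling chain of the interleukin-6 family encoded by Il6st. The Janus kinases bound to these chains, JAK1 foremost in mouse embryonic stem cells, phosphorylate STAT3, which enters the nucleus and switches on target genes. In culture medium with serum, this signal is what holds mouse embryonic stem cells in the undifferentiated state, and Socs3, itself a STAT3 target, encodes an inhibitor that shuts it off.

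RNA from 3 groups of mouse cells was hybridised to Illumina bead arrays, with 2 arrays a group. The piPSC group holds induced pluripotent stem cells made with recombinant proteins. The OG2-MEF group holds embryonic fibroblasts of day 13.5 embryos, from mice with a transgene in which the Oct4 promoter drives GFP, a fluorescent reporter, and these cells were grown on gelatin in fibroblast medium with serum and no LIF among its listed components. The ES group holds the embryonic stem cell line R1, grown with serum and 1000 units/ml LIF on irradiated fibroblast feeders, and the labels give the piPSC arrays the same culture text. LIF supply, feeders, cell type and the Oct4 reporter therefore differ together between OG2-MEF and ES and cannot be told apart. By the same text LIF supply, feeders and cell type also differ together between OG2-MEF and piPSC, and cannot be told apart there either. That text describes ES cell culture only, so the culture of piPSC is taken as the labels give it. Between piPSC and ES, the way the cells were made and the cell line differ together and cannot be told apart.

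The labels call the arrays biological replicates without saying whether they came from separate cultures, so p-values measure only the spread between these samples, which may be technical. The share of probes above background ran from 46.87% to 52.41%, and ES replicate 2 had the lowest. The SD over tested genes of the log2 difference between replicates was 0.203 in piPSC and 0.187 in OG2-MEF, but 0.557 in ES, so ES values carry the widest error. The model fit used below shares 1 spread per gene over all groups. Its intervals and p-values are therefore no wider for ES than for the other groups. All 10 pluripotent cell markers were above background on each piPSC and ES array, against 2 and 1 of 10 on the OG2-MEF arrays. The 13 fibroblast and feeder markers tested were above background on every array, with summed signals of 98615 to 105242 in OG2-MEF, 31094 to 34628 in piPSC and 24236 to 28743 in ES. Of these 13, 11 were lower in both pluripotent groups than in OG2-MEF, while Dcn (10.6-fold and 11-fold) and Lum (3.49-fold and 3.45-fold) were higher. In such bulk samples, fewer cells of a type and less RNA per cell cannot be told apart.

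The inhibitor Socs3 and the kinase Pim3 were the genes with the largest differences of the 8 in piPSC minus OG2-MEF, and both were also higher in ES than in OG2-MEF. The promoter windows of these genes are shown because Socs3 is the textbook STAT3 target and Pim3 moved with it. Each is the 250 bases before a transcription start given by RefSeq for GRCm38.p6, written 5′ to 3′ on the gene's strand. Capitals mark a match to TTCNNNGAA, the core of the sequence that STAT proteins bind, which reads the same on both strands and was the only motif searched. The Socs3 window lies at chr11:117969367-117969616 on the minus strand and the Pim3 window at chr15:88861944-88862193 on the plus strand. The start used for Socs3 lies 970 bases inside the outer end of the annotated gene, and that of Pim3 is the outer end itself.
Socs3: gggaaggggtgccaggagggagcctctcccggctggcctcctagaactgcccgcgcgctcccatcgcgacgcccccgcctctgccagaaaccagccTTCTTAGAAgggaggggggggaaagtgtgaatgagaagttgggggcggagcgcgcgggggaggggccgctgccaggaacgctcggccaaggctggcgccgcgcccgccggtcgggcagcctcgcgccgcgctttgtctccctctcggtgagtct
Pim3: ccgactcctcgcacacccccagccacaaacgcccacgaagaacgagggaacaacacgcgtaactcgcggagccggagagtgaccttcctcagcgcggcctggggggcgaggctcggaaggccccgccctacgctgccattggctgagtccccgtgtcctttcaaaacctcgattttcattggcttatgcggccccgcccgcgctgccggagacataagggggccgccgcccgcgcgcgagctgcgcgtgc
The Socs3 window held 1 match, TTCTTAGAA, from position -154 to -146 relative to the start that this window ends at. Of 32851 windows of this length, 2306 (7.02%) held a match. All 8 genes have at least 1 window, 10 in all, and the match in Socs3 was the only one among them. A match is a stretch of letters and not a shown binding site, and its lack in this window says nothing of binding elsewhere.

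Values below are log2 signals after background correction and quantile normalisation, and each group has n = 2. A gene is called changed at an adjusted p under 0.05 (limma, Benjamini-Hochberg over the 9900 genes) and a difference of at least 2-fold, which is 1 on the log2 scale.

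**Figure D1:**
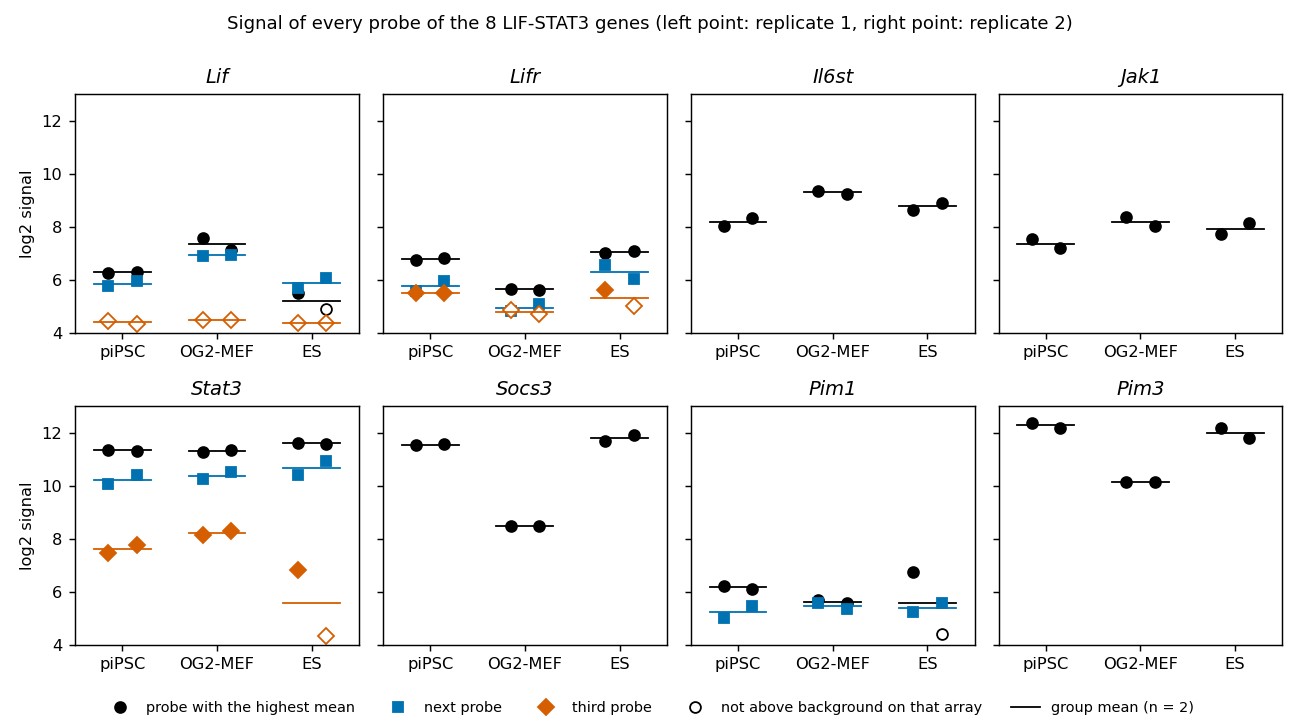
Log2 signal (vertical axis) of all 15 probes of the 8 genes on the 6 arrays, by group. Bars are group means, and open symbols mark arrays on which a probe was not above background. Socs3 and Pim3 stand higher on all piPSC and ES arrays than on both OG2-MEF arrays, while Lif is highest in OG2-MEF.

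Between piPSC and OG2-MEF, Lifr, Socs3 and Pim3 rose, Lif and Il6st fell, and Jak1, Stat3 and Pim1 were not called. Over all tested genes 41.7% were called in this comparison, 20.2% higher and 21.5% lower, so calls in 5 of 8 genes are not far from the background. Between ES and OG2-MEF, Lifr, Socs3 and Pim3 rose, Lif fell, and the other 4 were not called, against 46.8% called over all tested genes, 25.2% higher and 21.6% lower. These comparisons share the OG2-MEF arrays. Between piPSC and ES, Lif was called higher in piPSC, none of the 8 was called lower, and 7 were not called. The background there was 8.55%, with 4.11% higher and 4.43% lower. At an unadjusted p under 0.05 in the same limma fit, 1 of the 8 was higher and 2 were lower in piPSC than in ES. The share of all tested genes at that unadjusted p was not counted, so these counts cannot be set against a background. With the adjusted p alone and no fold threshold, 837 of all 9900 genes were higher and 1848 lower, and 1 of the 8 was higher and 1 lower.

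The median log2 difference of the 8 genes was 0.29, 0.12 and -0.25 in piPSC minus OG2-MEF, ES minus OG2-MEF and piPSC minus ES, against 0.02, 0.15 and -0.18 over all tested genes. Scaling arrays by their median in place of quantiles moved the latter to -0.19, -0.06 and -0.19. The split of calls over all genes then went from 1995 higher and 2130 lower to 1557 and 2670 in piPSC minus OG2-MEF, and from 407 and 439 to 409 and 286 in piPSC minus ES. All 8 genes kept their signs under that scaling except Stat3 in piPSC minus OG2-MEF, which was not called under either (-0.32 with median scaling).

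**Figure D2:**
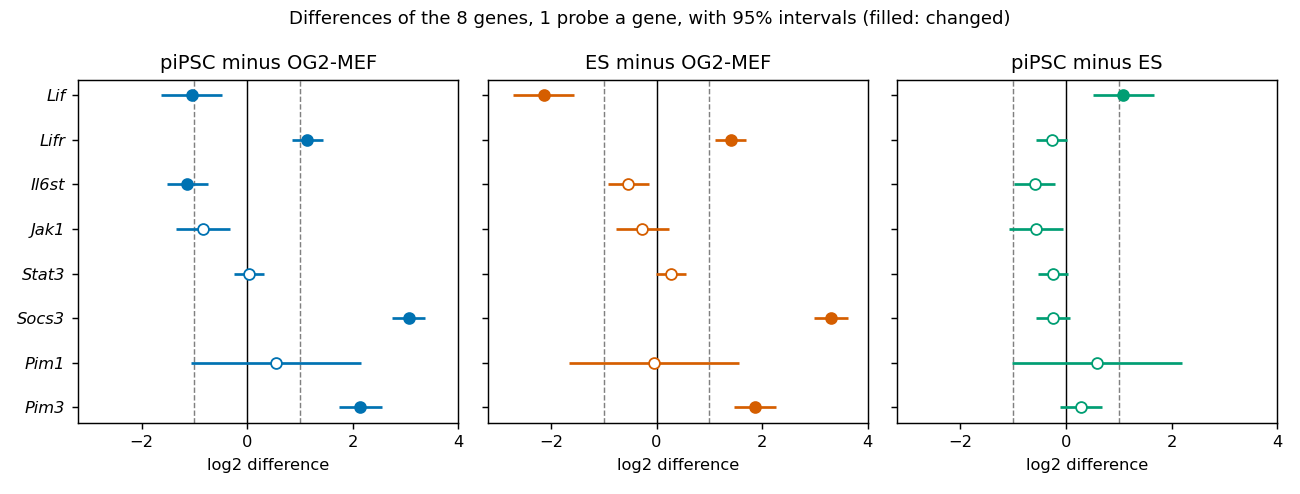
Log2 difference (horizontal axis) of the 8 genes, 1 probe a gene, in the 3 comparisons, with 95% intervals from limma. Filled points are called changed and dashed lines mark 2-fold. Socs3 and Pim3 lie far to the right of the 2-fold line against OG2-MEF, and Lif alone is filled in piPSC minus ES.

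Lif, the ligand, was highest in the fibroblasts. Its brightest probe, ILMN_3137291, read 7.57 and 7.11 in OG2-MEF, 6.26 and 6.31 in piPSC, and 5.50 and 4.90 in ES, with ES replicate 2 not above background. The groups did not overlap, which is common with 2 arrays a group. Of all tested genes 89% did not overlap in piPSC minus OG2-MEF, 85.5% in ES minus OG2-MEF and 68.9% in piPSC minus ES. Lif was lower in piPSC than in OG2-MEF by a log2 difference of -1.05 (95% interval -1.64 to -0.47, adjusted p = 0.0077), and lower in ES by -2.14 (-2.72 to -1.56, adjusted p = 0.00027). The value in piPSC was above that in ES by 1.09 (0.50 to 1.67, adjusted p = 0.024).

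A further Lif probe, ILMN_3137287, put OG2-MEF highest as well but did not separate piPSC from ES. It read 6.89 and 6.94 in OG2-MEF, 5.76 and 5.95 in piPSC, and 5.70 and 6.08 in ES. Tested among all kept probes, it was lower than OG2-MEF by -1.06 in piPSC and by -1.02 in ES (adjusted p = 0.0022 for both). Its piPSC minus ES difference was -0.04 (adjusted p = 0.88), so the probes disagree there and the call rests on 1 probe. With ILMN_3137291 kept and 1 array left out, a check added after the data were seen, the piPSC minus ES difference ran from 0.81 to 1.41. The call was lost without either piPSC array (1.11 and 1.06, adjusted p = 0.13 for both), either OG2-MEF array (1.05 for both, adjusted p = 0.055) or ES replicate 2 (0.81, below 2-fold). The third Lif probe, ILMN_1234792, was not above background on any array and was not tested.

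Lif and Lifr in piPSC minus OG2-MEF stand close to the 2-fold line. With the authors' normalised values they were -0.84 and 0.82, and with a larger offset of 50 they were -0.81 and 0.78, each with an adjusted p under 0.05 but below 2-fold. With its probe kept, Lif in that comparison was also lost without OG2-MEF replicate 1 (-0.81, adjusted p = 0.06). Lifr in ES minus OG2-MEF was at 0.99 with that offset.

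Lifr, the chain that binds LIF, ran the opposite way to its ligand. Probe ILMN_2829008 read 5.67 and 5.62 in OG2-MEF, 6.74 and 6.82 in piPSC, and 7.01 and 7.09 in ES, and no array of OG2-MEF reached those of the other groups. Lifr rose by 1.14 in piPSC (0.85 to 1.43, adjusted p = 0.00023) and by 1.41 in ES (1.11 to 1.70, adjusted p = 8.2e-05). The piPSC minus ES difference was -0.27, with an interval of -0.56 to 0.02 (adjusted p = 0.14).

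The other Lifr probes pointed the same way with dimmer signals. ILMN_1242960 differed from OG2-MEF by 0.82 in piPSC (adjusted p = 0.022, below 2-fold) and by 1.34 in ES (adjusted p = 0.0027). ILMN_2829015 was not above background on either OG2-MEF array, and its signal in piPSC was at least 1.39-fold higher, with an adjusted p of 0.03. In ES the bound was 1.23-fold, with an adjusted p of 0.068. That ES value is not a firm lower limit, since ES replicate 2 (5.00, against 5.63 on replicate 1) was not above background either. A bound of this kind sets the brighter group's mean against the higher of the dim probe's own signal and the lowest signal above background on those arrays.

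Il6st, which encodes gp130, was lowest in piPSC. Its single probe, ILMN_2608184, read 8.04 and 8.32 in piPSC, 9.36 and 9.25 in OG2-MEF, and 8.64 and 8.91 in ES. The groups were without overlap, as was common over all tested genes. Il6st fell in piPSC against OG2-MEF by 1.13 on the log2 scale (interval of the difference -1.52 to -0.74, adjusted p = 0.00093). The differences of ES from OG2-MEF (-0.54, adjusted p = 0.022) and of piPSC from ES (-0.59, -0.99 to -0.20, adjusted p = 0.04) stayed below 2-fold. Without piPSC replicate 1 the difference from OG2-MEF was -0.996, just under 2-fold, and the call was lost.

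Jak1, the kinase bound to gp130, was not called in any comparison. It read 7.53 and 7.18 in piPSC, 8.35 and 8.04 in OG2-MEF, and 7.72 and 8.13 in ES, so the ES and OG2-MEF arrays overlap while both piPSC arrays are lowest. The piPSC minus OG2-MEF difference of -0.84 (-1.34 to -0.33) had an adjusted p of 0.011 and missed only the 2-fold line. It passed that line with median scaling (-1.11) and without piPSC replicate 1 (-1.03). In ES minus OG2-MEF Jak1 was at -0.27 (adjusted p = 0.28), and in piPSC minus ES at -0.57 (adjusted p = 0.087).

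Stat3, the transcription factor of the pathway, was close to level across the groups on its brightest probe. ILMN_2698046 read 11.36 and 11.32 in piPSC, 11.28 and 11.35 in OG2-MEF, and 11.60 and 11.58 in ES. The difference of piPSC from OG2-MEF was 0.03, with an interval of -0.26 to 0.31 that leaves out a 2-fold change in either direction (adjusted p = 0.85). ES minus OG2-MEF was 0.28 (-0.01 to 0.57, adjusted p = 0.071) and piPSC minus ES was -0.25 (-0.54 to 0.03, adjusted p = 0.15).

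A bright further Stat3 probe, ILMN_2589790, was likewise not called, at -0.15, 0.29 and -0.45 in the same order of comparisons. The dim probe ILMN_3096144 differed from both: it read 7.46 and 7.76 in piPSC, 8.12 and 8.29 in OG2-MEF, and 6.83 and 4.34 in ES. It was called lower in ES than in OG2-MEF, by -2.62 (adjusted p = 0.02). On ES replicate 2 it was not above background, and ES replicate 1 also lay below the arrays of the other groups.

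Socs3, the feedback inhibitor, separated the pluripotent cells from the fibroblasts by more than any other of the 8 genes. Its intensity before normalisation was 2750 and 2824 in piPSC, 499.4 and 498.8 in OG2-MEF, and 2854 and 3042 in ES. On the normalised scale these were 11.52 and 11.56, 8.49 and 8.48, and 11.68 and 11.90 in the same order, and OG2-MEF lay far below both other groups. Socs3 rose 8.32-fold in piPSC (log2 difference 3.06, 2.74 to 3.37, adjusted p = 6.2e-06) and 9.87-fold in ES (3.30, 2.99 to 3.62, adjusted p = 4.5e-06). Between piPSC and ES the difference was -0.25 (-0.56 to 0.07, adjusted p = 0.19).

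Pim3, a serine/threonine kinase that favours cell growth and survival and keeps mouse embryonic stem cells undifferentiated, followed the same pattern. It read 12.38 and 12.18 in piPSC, 10.15 and 10.12 in OG2-MEF, and 12.19 and 11.81 in ES. The piPSC and ES ranges overlap, and both lie above OG2-MEF. Pim3 rose 4.42-fold in piPSC (2.14, 1.74 to 2.54, adjusted p = 5.9e-05) and 3.64-fold in ES (1.86, 1.46 to 2.26, adjusted p = 9.5e-05), with a piPSC minus ES difference of 0.28 (-0.12 to 0.68, adjusted p = 0.24). Socs3 and Pim3 kept both calls against OG2-MEF in all 16 alternative settings.

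Pim1, the related kinase and also a STAT3 target, could not be placed. Probe ILMN_2702406 read 6.22 and 6.10 in piPSC and 5.67 and 5.55 in OG2-MEF, but 6.74 and 4.40 in ES, where replicate 2 was not above background. The piPSC minus OG2-MEF difference of 0.55 had an interval of -1.06 to 2.15 (adjusted p = 0.5), since the spread is shared by the groups and the ES pair sets it. Without ES replicate 2 that difference was 0.56 (adjusted p = 0.0013), below 2-fold, and ES minus OG2-MEF went from -0.05 to 1.15. For ILMN_2702406 the piPSC minus ES difference was 0.59 (-1.01 to 2.2, adjusted p = 0.52), and it ran from -0.582 to 1.805 over the 16 alternative settings. The other Pim1 probe, ILMN_2932713, read 4.99 to 5.56 on the 6 arrays and was not called in any comparison. Pim2, the remaining member of the kinase family, was not called either, at -0.06, 0.13 and -0.18. Its probe read 5.25 to 5.62 on the 6 arrays, near background, so the lack of a call does not show equal levels.

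**Figure D3:**
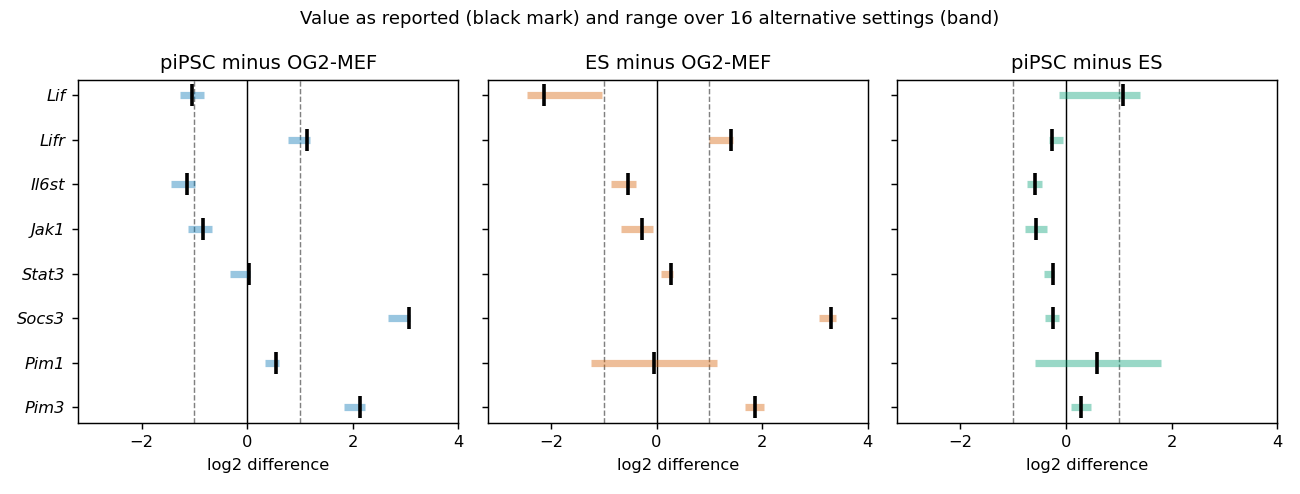
Log2 difference (horizontal axis) of each of the 8 genes as reported (black mark) and its range over 16 alternative settings (band), with dashed lines at 2-fold. The bands of Socs3 and Pim3 stay beyond 2-fold against OG2-MEF. Those of Pim1 in ES minus OG2-MEF and in piPSC minus ES, and of Stat3 in piPSC minus OG2-MEF, cross 0. The band of Lif in piPSC minus ES also crosses 0, where the probe ILMN_3137287 stood for Lif.

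Other genes of the pathway were counted in 7 lists of 73 genes, of which 52 were tested and 21 were not. Of the 52, 18 rose and 10 fell in piPSC against OG2-MEF (53.8% called, against 41.7% of all tested genes), and 16 rose and 10 fell in ES (50%, against 46.8%). In piPSC minus ES, 1 was higher and 2 were lower (5.77%, against 8.55%). The counts of each list below stand beside 20.2% higher and 21.5% lower over all tested genes in piPSC against OG2-MEF, and 25.2% and 21.6% in ES.

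Among the other ligands of the interleukin-6 family, 5 of 10 were tested. In both pluripotent groups 1 rose and 2 fell against OG2-MEF, with list medians of 0.29 and 0.23. Il11, a ligand that signals through gp130, stood at 12.61 and 12.39 in OG2-MEF, 6.78 and 6.92 in piPSC, and 6.29 and 6.66 in ES, and fell by 5.65 and 6.02. Clcf1, a ligand of the ciliary neurotrophic factor receptor, was at least 4.41-fold lower in piPSC and at least 3.83-fold lower in ES. Osm, which encodes oncostatin M, was not above background in OG2-MEF and read 8.14 and 8.39 in piPSC and 9.58 and 9.65 in ES, at least 9.52-fold and 24.3-fold higher. It was also called lower in piPSC than in ES (-1.35, adjusted p = 0.0031), a call lost without piPSC replicate 1 (-1.23, adjusted p = 0.051). The other Osm probe was not called in any comparison (0.36, 0.04 and 0.33).

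Of the other receptor chains of the family, 3 of 6 were tested and 1 fell in each comparison with OG2-MEF. It was Osmr, the oncostatin M receptor chain, which read 10.84 and 10.93 in OG2-MEF, 8.68 and 8.63 in piPSC, and 8.56 and 8.63 in ES. The differences were -2.23 in piPSC (adjusted p = 1.5e-05) and -2.29 in ES (adjusted p = 1.2e-05). Lifr and Osmr, alternative partners of gp130, thus moved in opposite directions.

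Of the other Janus kinases and STATs, 7 of 9 were tested, with 4 higher and 1 lower in piPSC and 2 higher and 1 lower in ES, and list medians of 1.07 and 0.66. Stat4, best known from interleukin-12 signalling in T cells, was not above background in OG2-MEF and at least 7.94-fold higher in piPSC and 10-fold higher in ES. Its other probe gave 1.87, called higher, and 0.66, not called. Jak3, the kinase of the common gamma chain receptors, rose in piPSC (3.37, adjusted p = 0.0053). In ES its arrays read 8.17 and 5.70, and the difference of 1.94 (adjusted p = 0.044) was 3.23 without ES replicate 2 and 0.72 without replicate 1. That call was lost in 9 of 16 alternative settings, with adjusted p up to 0.18. The other Jak3 probe was called higher in both groups (2.33 and 2.45, adjusted p = 7.1e-05 and 5.2e-05). Jak2 fell by 1.59 and 1.42. Stat2, a factor of type I interferon signalling, rose in piPSC (1.43, adjusted p = 0.00022) and stayed below 2-fold in ES (0.93, adjusted p = 0.0014), where it passed without OG2-MEF replicate 1 (1.06) and without ES replicate 2 (1.03).

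Of the other negative regulators, 12 of 15 were tested, with 4 higher and 3 lower in piPSC, 4 higher and 2 lower in ES, and list medians of 0.11 and -0.04. Ptpn6, a tyrosine phosphatase best known in blood cells, was at least 16.4-fold and 16.2-fold higher, and its other probe at least 2.47-fold and 3.06-fold higher. Socs7 was at least 3.46-fold and 3.49-fold higher. Socs5 fell by 2.67 and 2.32, and Cish, an inhibitor of STAT5 signalling, by 1.95 and 1.78. The SOCS genes named here were split, with Socs3 and Socs7 higher and Socs5 and Cish lower than in fibroblasts, also with median scaling.

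Because Osm, Jak3, Stat4 and Ptpn6 are expressed in blood cells, markers of macrophages and blood cells were read beside them. Of 9 markers 4 were tested, 1 higher and 2 lower than OG2-MEF in each pluripotent group. Their summed signal was 672 to 715 in OG2-MEF, 10369 to 11864 in piPSC and 8839 to 9659 in ES. The sums in piPSC and ES come almost wholly from Laptm5, the marker that rose (5.24 and 4.98). Cd14 (-1.46 and -2.22) and Lyz2 (-1.71 and -2.49) were called lower, and Adgre1 was not called (-0.23 and -0.06). The defining markers Ptprc, Itgam and Spi1 were not above background on both arrays of any group. The part of other cells in these results was not tested.

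In the arm that leads from gp130 to Ras and phosphatidylinositol 3-kinase, 9 of 14 genes were tested, with 2 higher and 2 lower in each pluripotent group and list medians of -0.54 and -0.25. Gab1, a docking protein of this arm, rose by 3.20 and 3.38. Map2k1, which encodes the kinase MEK1, rose by 1.21 and 1.45, though in piPSC it was below 2-fold with median scaling (0.88) and without piPSC replicate 1 (0.82). Ptpn11, the phosphatase SHP2 that binds gp130 at the site also used by SOCS3, fell by 1.34 and 1.33. Its other probes gave -1.36 and -1.35 in piPSC and -2.46 and -2.52 in ES, all called lower, and ILMN_2743723 was called higher in piPSC than in ES (1.17, adjusted p = 0.037). Pik3ca, a catalytic subunit of phosphatidylinositol 3-kinase, fell by 1.06 and 1.30, both below 2-fold with the authors' normalised values (-0.82 and -0.99), and in piPSC also without piPSC replicate 1 (-0.87) or OG2-MEF replicate 2 (-0.93).

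**Figure D4:**
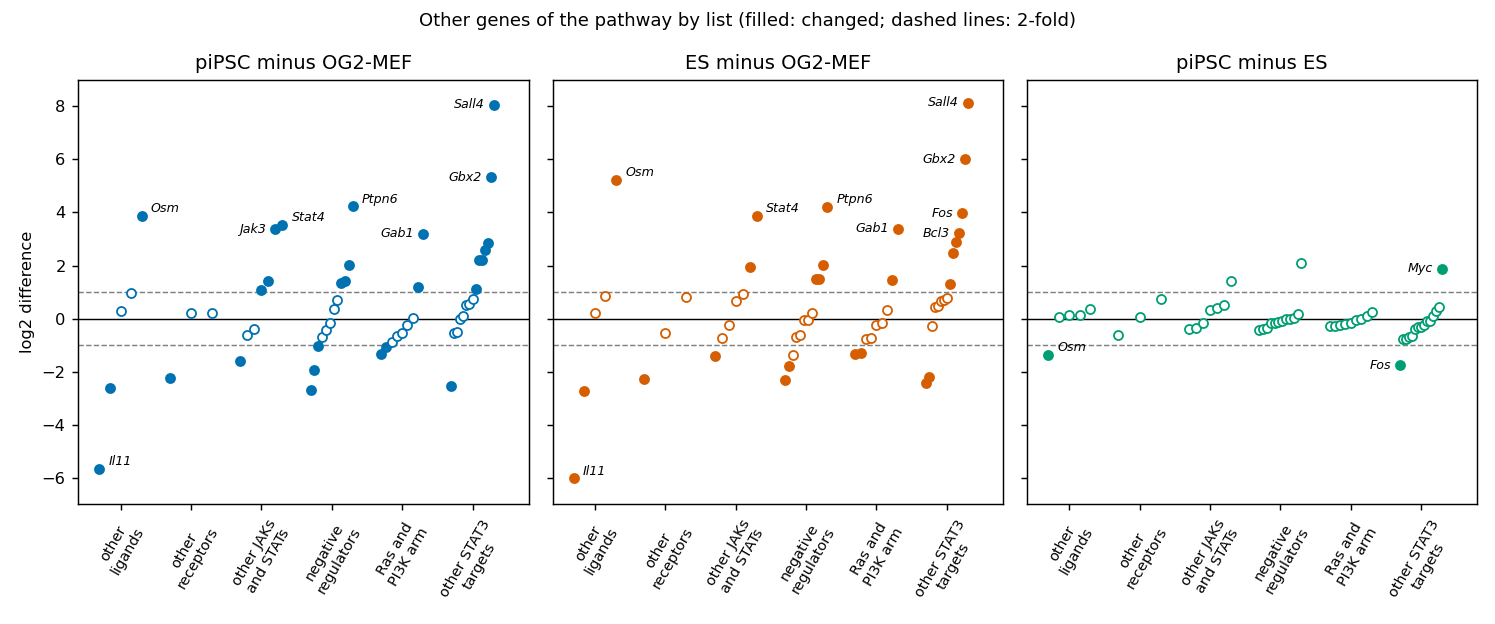
Log2 difference (vertical axis) of the tested genes of 6 pathway lists in the 3 comparisons. Each point is a gene, filled where called changed, and dashed lines mark 2-fold. Filled points lie on both sides of 0 in every list except the other receptors against OG2-MEF, and only Osm, Fos and Myc are filled in piPSC minus ES.

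Of the other STAT3 targets reported in embryonic stem cells, 15 of 18 were tested, with 7 higher and 1 lower in piPSC, 7 higher and 2 lower in ES, and list medians of 0.75 and 0.78. Over all tested genes 20.2% were higher and 21.5% lower in piPSC, and 25.2% and 21.6% in ES. Tfcp2l1, Dact1 and Smad7 were not tested. The list was written with earlier results of these data known and holds factors of pluripotent cells. Its counts therefore do not measure STAT3 activity, which was not tested. Sall4, a zinc finger factor of pluripotent cells, was at least 239-fold and 252-fold higher on its brightest probe, and Gbx2, a homeobox factor, at least 36.2-fold and 57.8-fold higher. A further Sall4 probe, ILMN_2595478, was called higher in both groups (8.05 and 7.09). Another, ILMN_2676148, gave 2.24 in piPSC but 0.03 in ES. In the limma fit of every kept probe, ILMN_2676148 was called higher in piPSC than in ES (2.21, adjusted p = 0.00085). Bcl3, an atypical IkB protein, rose by 2.84 and 3.22. Fosl1, named after its values were seen to show which target fell in both groups, was called lower (-2.53 and -2.20, adjusted p = 1.6e-05 and 2.5e-05). Klf4, which is named here after its values were seen, as a factor through which LIF acts on pluripotency, read 10.96 and 10.95 in piPSC, 8.79 and 8.66 in OG2-MEF, and 11.64 and 11.58 in ES, and rose by 2.23 and 2.88.

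With 1 probe a gene, Fos and Myc were the targets called between piPSC and ES, in opposite directions. Fos, an immediate early gene, read 9.44 and 9.80 in piPSC, 7.38 and 7.46 in OG2-MEF, and 11.30 and 11.46 in ES. It was higher than OG2-MEF by 2.20 in piPSC and 3.96 in ES, and lower in piPSC than in ES by -1.76 (adjusted p = 0.0023). Myc, also named after its values were seen, read 6.86 and 7.33 in piPSC, 7.71 and 7.53 in OG2-MEF, and 5.91 and 4.50 in ES, where replicate 2 was not above background. Against OG2-MEF it was called lower in ES (-2.41, adjusted p = 0.0024) and not called in piPSC (-0.525, adjusted p = 0.32). Its piPSC minus ES difference was 1.89 (adjusted p = 0.026), and 1.19 without ES replicate 2. Leaving out either piPSC array took its adjusted p to 0.11 and 0.15, and leaving out either OG2-MEF array to 0.072.

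The genes nearest in pattern to each of the 8 were taken by the root mean square difference, over the 6 arrays, of log2 signals centred on each gene's mean, as a description over 9900 genes. Nearest to Socs3 were Adap1 (0.06), Pou4f1 (0.06) and BC052040 (0.07), and nearest to Pim3 were Dek (0.05), Usp28 (0.08) and Med19 (0.10). Rfc2, Upk2 and Dhx35 came nearest to Lifr (each 0.04), and Ahcyl1 (0.09), Ap1s1 (0.10) and Fkbp1a (0.12) to Lif. For Il6st they were Atp9b, Scai and Rbsn (0.06 to 0.07), for Jak1 Bmt2, Zfp101 and Dtx3 (0.03 to 0.09), and for Stat3 Serf2, Ctnnb1 and Rufy2 (0.04 to 0.05). Pim1 had no close neighbour, the nearest being Ckap2l at 0.21. None of these is another of the 8 genes.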

How the data were processed

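The authors deposited non-normalised bead intensity values and a detection p-value for each probe and array, per the file headers, and a matrix of log2 values. The deposited log2 matrix matched quantile-normalised log2 intensity within 0.0012. Scanner, software and any background subtraction are not given in the sources used here.

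Intensities were background-corrected with neqc in limma 3.58.1 (R 4.3.3; normexp from detection p-values, offset 16, quantile normalisation). A probe was kept (14533 of 25697) where both arrays of some group had a detection p under 0.05. Symbols came from GEO's array annotation, updated through Entrez identifiers and accessions: 23978 probes have 1 symbol and 1719 none, and unnamed probes were left out. A gene was represented by its probe of highest mean signal across all 6 arrays. All 3 groups entered 1 limma fit (3 residual degrees of freedom), with Benjamini-Hochberg adjustment within each comparison. A second fit tested every kept probe. The procedure was tested on simulated data. Precision is limited by the few arrays.

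The 8 genes and all lists were chosen with earlier results of these data known. Named from each list are up to 4 genes with the largest difference among those changed in any comparison, and 3 nearest genes for each of the 8. Socs2, Socs4 and Socs6 were added after their values were seen, to fill in the SOCS family. The labels do not say whether arrays with the same replicate number share a culture or batch. The deviations of same-numbered arrays correlated at 0.00365 to 0.25 between groups, and these values cannot settle whether a batch was shared. Promoters are from RefSeq (GRCm38.p6). Alternatives covered normalisation, offset, filter, probe choice, thresholds, array weights, a replicate block and leaving out each array.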

Additional observations from a re-analysis of the deposited data

How the results depend on the processing

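Among the 8 genes, piPSC minus OG2-MEF gave 5 calls as reported and 3 with the authors' matrix, with no background correction and with an offset of 50, where Lif and Lifr dropped below 2-fold. Without a fold threshold the calls over all genes went from 4125 to 6796 there and from 4634 to 7264 in ES minus OG2-MEF. In piPSC minus ES the 1 call among the 8 became 0 in limma with the authors' matrix, no background correction, an offset of 50 and no detection filter (3, 3, 4 and 6 at an unadjusted p under 0.05), 2 without a fold threshold, and 0 to 2 when 1 array was left out. Over all genes its 846 calls became 547, 550 and 466 with the first 3 of these settings, 1308 with every kept probe, 2685 without a fold threshold, and 130 to 1650 when 1 array was left out. With the authors' matrix the split was 351 higher and 196 lower. The share of all genes at an unadjusted p under 0.05 in limma was not counted in any setting. Leaving out 1 array moved Pim1 in ES minus OG2-MEF from -1.25 (without ES replicate 1) to 1.15 (without ES replicate 2), and Lif in piPSC minus ES from -0.13 to 1.41. In Lif the values without piPSC replicate 1 (0.06), piPSC replicate 2 (-0.13) and OG2-MEF replicate 1 (-0.04) come from the other Lif probe, which then had the highest mean. With probes kept as reported, an alternative chosen after seeing the data, Lif ran from 0.81 to 1.41, the calls among the 8 in piPSC minus ES again from 0 to 2, and those over all genes from 132 to 1633. With a replicate block 5, 4 and 1 of the 8 genes and 4129, 4640 and 865 of all genes were called, with no call among the 8 changed. A lone ES array is assumed to vary like the other groups. Probes near background, as for Lif, Lifr, Pim1 and Pim2, have compressed differences.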
